A study of Rattus norvegicus with 12 samples.

Results

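The spermatocyte (SPC) markers are rat genes whose mouse counterparts mark spermatocytes in published single-cell data, as listed in a supplementary table of the study. Of 31512 features in the deposited files (a marker, or a transcript outside the markers), 171 are SPC markers described here. The table assigns 10 further genes to the SPC, namely Sycp3, Piwil1, Adam2, Hspa2, Rnf166, Rnf7, Slc9b1, Slco6c1, Spata4 and Ube2t, which were set aside by the rule that chose the members (the first 3 by name, the others by gene family). No measured value entered that rule.

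Testes of male SD (Sprague Dawley) rats were examined by RNA sequencing in 12 libraries. The labels give an age of 8 weeks for every sample. The rats were then kept for a week before the experiments and stressed for up to 21 days, so their age at sampling was higher and rose with the duration of stress. Age and duration cannot be told apart among the stress groups. The control group held 3 libraries, and 3 stress groups held 3 libraries each. The stress (RS+IS) was daily restraint followed by swimming in ice water, applied for 3, 14 or 21 days, while control rats moved freely but were kept from food and water over the same hours. The labels give 1 control group with no duration, although the study describes controls at each time point, so the time that the control rats had been kept cannot be told from the labels. The study calls the 3 samples of a group biological replicates, and the labels name no animals, so p-values measure the spread between these samples. The comparisons with the control group share the same 3 control libraries, and each stress group likewise enters several comparisons.

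Spermatocytes are the germ cells in meiosis. They arise from spermatogonia, replicate their DNA, pair homologous chromosomes along the synaptonemal complex, repair programmed breaks by recombination, and then pass through the meiotic divisions to become haploid round spermatids. Much of the RNA for later steps is already made in pachytene spermatocytes, so that genes of the sperm tail and the acrosome are found among markers of this cell type. Whole testis was sequenced, so fewer spermatocytes and less RNA per spermatocyte cannot be told apart.

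The libraries held from 23908048 to 29404590 estimated counts, and the 171 SPC markers took from 4.22% to 4.68% of them. All 171 markers passed the filter on low counts in every comparison, and no marker was under 10 counts in any library. The lowest share was that of 21-day replicate 1 and the highest that of control replicate 2. Relative to each marker's own mean over the 12 libraries, the median SPC marker stood at -0.08, 0.10 and 0.04 on the log2 CPM scale in the 3 control libraries (CPM, counts scaled to library size, here with TMM factors), at 0.01 to 0.06 in the 3-day group, at -0.02 to 0.04 in the 14-day group, and at -0.09, 0.05 and -0.07 in the 21-day group. The control libraries thus covered most of the range that the stress groups spanned. Markers of somatic cells of the testis were not analysed here, because the deposited files name transcripts and not genes.

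**Figure D1:**
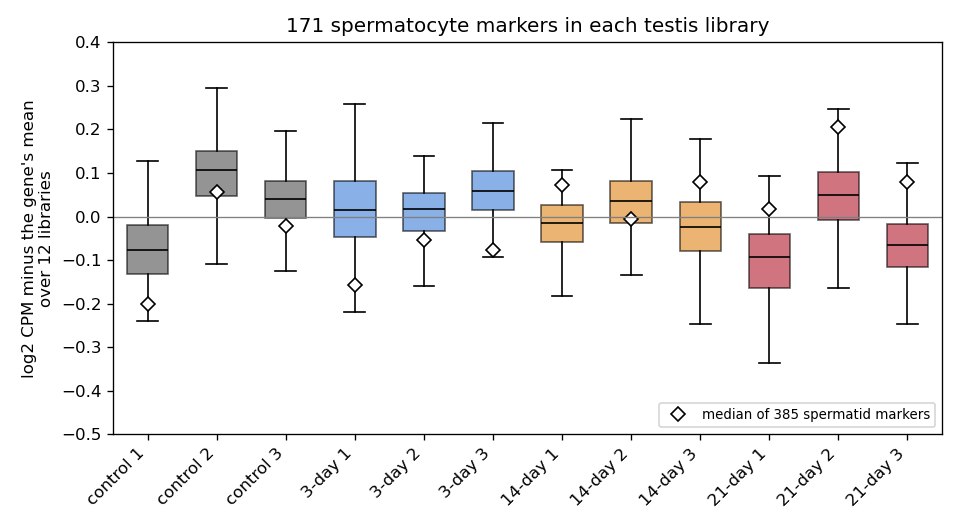
Boxes show, for each library, log2 CPM of the 171 SPC markers minus each marker's own mean over the 12 libraries (line, median; box, quartiles; whiskers, farthest points within 1.5 box lengths), and diamonds show the median of the spermatid markers of the same table. The SPC medians lie between -0.09 and 0.10, and the diamond lies above the SPC median in 5 of the 6 libraries of 14 and 21 days and below it in the 6 others.

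Promoters of members that act in cell division are shown, because this role held the lowest median difference at 21 days. That median, -0.098, was close to the -0.097 of transcription and chromatin. The members shown were all lower at 21 than at 3 days at an unadjusted p under 0.05 (edgeR). These values were known when they were chosen. Some members of the cell division role, not all, are known to be transcribed together late in the cell cycle. They are so through a CHR element (searched as TTTGAA) and CCAAT boxes (searched as CCAAT). Each line gives the 250 bases before the annotated gene start from RefSeq (assembly GRCr8), written 5′ to 3′ on the strand of the gene, with capitals marking matches to these motifs or to the MYB motif (AACTGNC) on either strand. The stretches are chr5:137255800-137256049 on the minus strand (Cdc20), chr17:13727520-13727769 on the minus strand (Cks2), chr2:155550012-155550261 on the plus strand (Smc4), chr1:143659231-143659480 on the plus strand (Prc1) and chr6:29674952-29675201 on the minus strand (Spdya).
Cdc20: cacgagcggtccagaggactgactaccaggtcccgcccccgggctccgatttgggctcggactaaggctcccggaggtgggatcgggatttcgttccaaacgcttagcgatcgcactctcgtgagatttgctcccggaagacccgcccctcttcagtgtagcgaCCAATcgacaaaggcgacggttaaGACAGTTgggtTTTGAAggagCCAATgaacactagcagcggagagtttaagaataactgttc
Cks2: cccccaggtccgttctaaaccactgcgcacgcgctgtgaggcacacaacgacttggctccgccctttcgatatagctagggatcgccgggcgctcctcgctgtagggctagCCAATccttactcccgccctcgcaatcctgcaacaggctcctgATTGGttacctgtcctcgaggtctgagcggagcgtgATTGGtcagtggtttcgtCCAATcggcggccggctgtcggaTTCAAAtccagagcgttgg
Smc4: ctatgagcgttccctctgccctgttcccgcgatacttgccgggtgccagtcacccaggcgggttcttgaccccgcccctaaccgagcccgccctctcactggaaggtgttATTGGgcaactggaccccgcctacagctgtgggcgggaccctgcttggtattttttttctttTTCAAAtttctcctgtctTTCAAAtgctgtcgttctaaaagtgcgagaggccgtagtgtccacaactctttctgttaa
Prc1: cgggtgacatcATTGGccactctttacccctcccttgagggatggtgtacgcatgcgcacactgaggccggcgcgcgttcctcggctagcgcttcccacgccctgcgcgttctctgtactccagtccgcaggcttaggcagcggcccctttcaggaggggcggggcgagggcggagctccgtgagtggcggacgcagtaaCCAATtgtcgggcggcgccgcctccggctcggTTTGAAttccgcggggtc
Spdya: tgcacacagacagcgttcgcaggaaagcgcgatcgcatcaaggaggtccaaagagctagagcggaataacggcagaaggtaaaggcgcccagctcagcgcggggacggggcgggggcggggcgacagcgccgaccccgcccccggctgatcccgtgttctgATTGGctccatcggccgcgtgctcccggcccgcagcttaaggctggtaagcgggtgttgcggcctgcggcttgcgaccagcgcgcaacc
The CHR letters began 51 bases before the gene start in Cdc20, 19 bases before it in Cks2, 78 and 60 bases before it in Smc4 and 18 bases before it in Prc1, while Spdya held a CCAAT match alone. Counting 300 bases per promoter (250 before and 50 after the start), 7 of the 13 cell division members with an entry held TTTGAA, namely Birc5, Cdc20, Cdca8, Cks2, Prc1, Pttg1 and Smc4, which is 53.8%, beside 18.3% of all 33469 rat promoters in the table. CCAAT was found in 9 of these 13 (69.2%), beside 37.5% of all promoters, and the MYB letters in 2 (15.4%). The letters were also frequent in the 23 promoters of metabolism and mitochondria members, with TTTGAA in 34.8%, CCAAT in 56.5% and the MYB letters in 34.8%. Pbk has no entry in the promoter table. Over all 139 SPC markers with 1 promoter entry, TTTGAA was found in 18.7% and CCAAT in 46.0%, MYB letters in 18.0% against 13.5% of all promoters, the cyclic AMP element TGACGTCA in 2.16% against 1.83%, and the RFX letters GTTGCCA in 8.63% against 4.56%. Among members of the cilium, flagellum and centriole, genes that RFX factors are known to drive in ciliated cells, 4 of 21 held GTTGCCA (19.0%). The median GC content was 59.0% in the SPC marker promoters and 51.7% in all promoters, with a median of 20 and 7 CpG dinucleotides, and no allowance was made for GC content. These matches are a description of letters, not of binding.

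Per transcript length, the SPC markers were abundant in the testis. The mean TPM (a level per transcript length, scaled to the same total in every library) over the 12 libraries had a median of 111 and ran from 5.01 to 6140, with 97 of 171 markers at 100 or more and 167 at 10 or more. The highest level was that of Cox7b2, a subunit of cytochrome c oxidase, at 6140 TPM, but its transcript is 240 bases long with an effective length of only 42.7 to 45.4, so this level rests on a very short divisor. It was followed by Cmtm2a at 2001, the small gene Serf1 at 2000, the acrosomal protease inhibitor Spink2 at 1874, and the testis forms of cytochrome c oxidase subunits Cox8c at 1612 and Cox6b2 at 1142 TPM. Spink2, Cox8c and Cox6b2 were named after their values were seen. The lowest levels were those of Ovol2, a zinc finger transcription factor, at 5.01 TPM, the DNA ligation factor Xrcc4 at 7.85 and the flavoprotein Rnls at 8.54. Serf1, Tuba3a, Tuba3b, Calm2, Rpl10l, Pabpc2 and Pabpc6 have near-identical copies in the genome, and how reads were split among copies is uncertain.

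Most markers varied little. The pooled SD of log2 CPM within groups had a median of 0.095, and in 152 of 171 markers the highest library was under 1.5 times the lowest. In 5 markers the highest library was over 2 times the lowest. Sccpdh stood apart, with 16.02, 29.8 and 27.8 CPM in the controls, 45.6, 14.7 and 7.96 CPM at 3 days, 64.5, 37.9 and 17.5 CPM at 14 days and 54.8, 23.6 and 29.7 CPM at 21 days. The lowest and the highest library of Sccpdh differed 8.11-fold, and the libraries of each stress group lay farther apart than the controls. Morc2b, a mouse meiotic prophase gene, was at 179.7, 187 and 57.4 CPM in the controls, 166, 196 and 168 CPM at 3 days, 167, 243 and 169.9 CPM at 14 days and 173, 197 and 181.2 CPM at 21 days. A single library, control replicate 3, was low. The other 11 ran from 166 to 243 CPM, with 14-day replicate 2 the highest. Wfdc15a ranged from 9.25 CPM in 21-day replicate 1 to 26.8 CPM in 3-day replicate 1. Pbx4, named after its values were seen, was at 25.4 CPM in control replicate 1 and at 44.8 to 58.2 CPM in the 11 others. Znhit3, also named after its values were seen, ranged from 2.34 CPM in 14-day replicate 1 to 5.05 CPM in 3-day replicate 1.

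Each stress group was compared with the control group to ask whether SPC marker expression differed with the duration of stress. A marker is called higher or lower here at an unadjusted p under 0.05 in the edgeR quasi-likelihood test. The study used the same threshold with DESeq2, another count test, which is given beside it. With edgeR, 0 of the 171 passed an adjusted p under 0.05 (Benjamini-Hochberg over all features tested) in any of the 7 comparisons made. Of all features tested, 0% passed this adjusted threshold at 3 days, 0% at 14 days, 0.019% at 21 days and 1.73% for chronic stress (the 14-day and 21-day groups joined). After 3 days, 1 marker was called higher and 1 lower, where 2.03% and 2.01% of all features tested were called. After 14 days, 0 markers were called higher and 4 lower (2.34% of the 171), where 7.19% of all features were called higher and 4.86% lower. After 21 days, 0 were called higher and 13 lower (7.60%), where 8.46% of all features were called higher and 5.71% lower. The share of lower calls by edgeR was thus below the background at 14 days and little above it at 21 days, while higher calls were absent at both times. For chronic stress (6 libraries), 0 were called higher and 15 lower (8.77%), where 11.1% of all features were called higher and 9.29% lower. With DESeq2 at an unadjusted p under 0.05, 0 of the 171 were called higher and 21 lower at 21 days. This is more than the 13 lower by edgeR, while the background was alike, with 8.32% of all features called higher and 5.86% lower. At an adjusted p under 0.05, DESeq2 called 0 markers at 3 days, 1 at 14 days (Cox7b2), 1 at 21 days (Psma8) and 3 for chronic stress (Cox7b2, Psma8 and Tomm22), where 0.176%, 2.4%, 4.25% and 8.15% of all features that it gave an adjusted p were called.

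The differences were small throughout. The median log2 fold change over the 171 markers was -0.0007 at 3 days, -0.03 at 14 days, -0.06 at 21 days and -0.05 for chronic stress, beside medians over all features tested of -0.0086, -0.01, -0.0031 and -0.0056. The fitted difference was negative in 86 of 171 markers at 3 days, in 116 at 14 days, in 133 at 21 days and in 131 for chronic stress. Without overlap between the groups, 18 of 171 markers were below the controls at 21 days and 2 above them, which is 10.5% and 1.17%, where 9.39% and 12.7% of all features were. At 21 days, 149 of 171 markers were within 0.2 of no change on the log2 scale. The called markers were lower by 0.16 to 0.43 on this scale at 21 days, a level of 0.741 to 0.896 of the control. The lowest adjusted p with edgeR was 0.985 at 3 days, 0.267 at 14 days, 0.189 at 21 days and 0.0788 for chronic stress. The number called at 21 days rested on single libraries: it was 2 without control replicate 3, 2 without 21-day replicate 1 (1 higher and 1 lower), 5 without 21-day replicate 3 and 6 without control replicate 2, but 20 without 21-day replicate 2 and 26 without control replicate 1. At 14 days it was 2 without 14-day replicate 1, 9 without control replicate 2 (5 higher and 4 lower) and 19 without control replicate 1, and without control replicate 2 the median turned to 0.01.

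**Figure D2:**
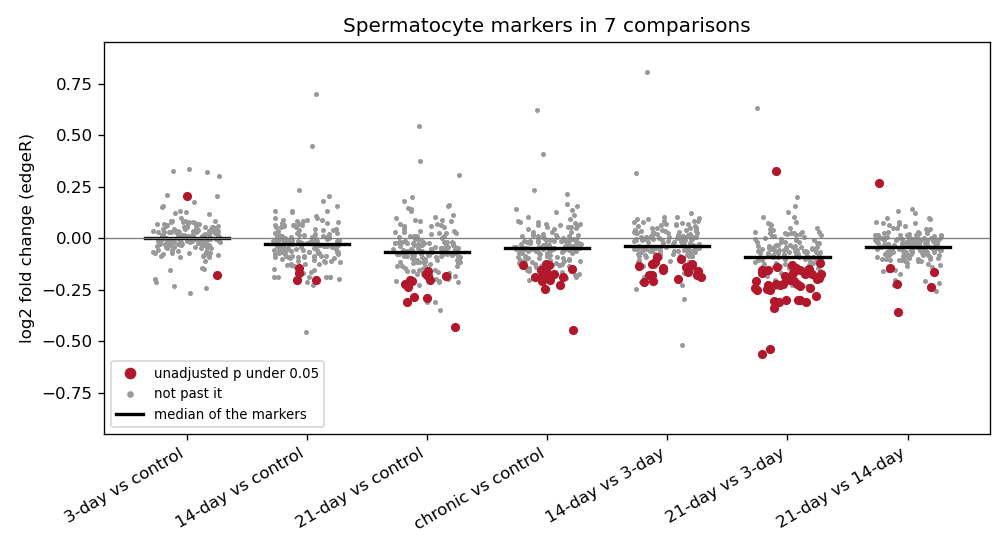
Each point is 1 of 171 SPC markers, with its log2 fold change from edgeR on the vertical axis, in each of 7 comparisons. Red points passed an unadjusted p under 0.05, and black lines are medians, which run from -0.0007 (3-day vs control) to -0.09 (21-day vs 3-day).

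Of the genes that act on meiotic chromosomes, 8 are among the markers, and 3 of these were called lower at 21 days, 0 at 14 days and 2 for chronic stress, where 5.71%, 4.86% and 9.29% of all features were called lower. Shcbp1l, a testis protein of the meiotic spindle, was at 327, 369.8 and 352 CPM in the controls, 339, 329 and 368 CPM at 3 days, 331, 321 and 327 CPM at 14 days and 280.3, 322 and 312 CPM at 21 days. All 3 libraries of the 21-day group were below all 3 control libraries, and the log2 fold change was -0.21 (SE 0.08, edgeR unadjusted p = 0.0432, adjusted p = 0.338). Xrcc4, which joins DNA ends, had the largest fitted decrease at 21 days, with 11.2, 11.4 and 7.80 CPM in the controls, 8.37, 8.76 and 8.64 CPM at 3 days, 5.85, 8.11 and 8.34 CPM at 14 days and 6.97, 8.35 and 7.31 CPM at 21 days. Control replicate 3 was at the level of the stressed groups and the other 2 controls were above all 9 stressed libraries, so the groups overlapped. The log2 fold change at 21 days was -0.43 (SE 0.18, edgeR adjusted p = 0.344), and it was -0.36 to -0.60 as single libraries were left out.

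Sycp2 and Syce1, the structural genes of the synaptonemal complex among the members, did not pass the test against control at any time. Sycp3, which the study reports as decreased under chronic stress, was set aside by the rule. The values here therefore do not describe the complex as a whole. Sycp2, a lateral element protein of the synaptonemal complex, was at 461, 555 and 500.5 CPM in the controls, 497, 499 and 533 CPM at 3 days, 497, 486 and 473 CPM at 14 days and 469, 476 and 468 CPM at 21 days. The 14-day and 21-day values lay within the range of the controls, and the log2 fold change at 21 days was -0.11 (SE 0.08). Syce1, a central element protein, was at 94.99, 110.5 and 126 CPM in the controls, 104, 103 and 118 CPM at 3 days, 103, 111 and 98.8 CPM at 14 days and 111, 110.3 and 108 CPM at 21 days, with a log2 fold change of -0.02 (SE 0.10) at 21 days. The cohesin loader Nipbl had one of -0.02 (SE 0.08), and Kctd19, a partner of the meiotic regulator ZFP541, one of 0.02 (SE 0.10). Kctd19 was lowest in 21-day replicate 1 at 153 CPM, while the other chronic libraries held 183 to 190 CPM. Morc2b, with its single low control library, had one of 0.37 (SE 0.39).

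Among the 14 genes of cell division, the fitted log2 fold change was negative in 10 at 3 days, in 14 at 14 days, in 13 at 21 days and in 14 for chronic stress, with medians of -0.01, -0.05, -0.10 and -0.08. Of the 14, 4 were called lower at 21 days, 4 for chronic stress and 0 at 3 or 14 days, beside the same shares of all features called lower (5.71% at 21 days and 9.29% for chronic stress). Cdc20, the activator of the anaphase promoting complex, was at 91.2, 99.6 and 101 CPM in the controls, 93.5, 87.7 and 96.9 CPM at 3 days, 84.4, 91.5 and 91.8 CPM at 14 days and 69.1, 81.8 and 88.8 CPM at 21 days. The highest 21-day library was below the lowest control, and the log2 fold change was -0.13 (SE 0.07) at 14 days and -0.29 (SE 0.11, edgeR unadjusted p = 0.0299, adjusted p = 0.303) at 21 days. Cks2, a small partner of the cyclin-dependent kinases that is needed for the first meiotic division, was at 56.4, 59.2 and 59.6 CPM in the controls, 59.2, 53.5 and 60.8 CPM at 3 days, 52.3, 52.5 and 57.4 CPM at 14 days and 45.1, 56.1 and 49.9 CPM at 21 days. The 21-day replicate 2 was just below the lowest control and the other 21-day libraries farther below it, and the log2 fold change was -0.22 (SE 0.09, edgeR adjusted p = 0.352). Spdya, the activator of the kinase Cdk2 at telomeres of prophase cells, was at 127, 144 and 135 CPM in the controls, 125, 128 and 135 CPM at 3 days, 130.5, 133 and 128 CPM at 14 days and 114, 124 and 117 CPM at 21 days. It was below all controls in all 3 libraries at 21 days, at 14 days the groups overlapped, and the log2 fold changes were -0.06 (SE 0.06) and, at 21 days, -0.20 (SE 0.07, edgeR adjusted p = 0.297).

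The mitotic kinase Pbk was at 88.5, 105 and 96.1 CPM in the controls, 109, 86.9 and 101 CPM at 3 days, 91.1, 90.03 and 87.95 CPM at 14 days and 76.0, 91.3 and 79.3 CPM at 21 days. The 21-day replicate 2 lay within the controls, so the groups overlapped although the log2 fold change of -0.24 (SE 0.10) passed the unadjusted test. Smc4, a condensin subunit, was at 557, 647 and 609 CPM in the controls, 662, 616 and 625 CPM at 3 days, 562, 585 and 540.1 CPM at 14 days and 550.3, 572 and 518 CPM at 21 days. It was called for chronic stress, with a log2 fold change of -0.13 (SE 0.06, edgeR adjusted p = 0.218), and not at 14 or 21 days alone. The midzone protein Prc1 had a log2 fold change of -0.18 (SE 0.09, unadjusted p = 0.101 with edgeR) at 21 days. The other members of this group were the spindle kinase Aurka, the chromosomal passengers Birc5 and Cdca8, the germ cell cyclin Ccna1, the centromere proteins Cenpv and Itgb3bp, the kinesin Kif2a and the securin Pttg1. Their log2 fold changes at 21 days ran from -0.12 (SE 0.09) for Cenpv to 0.0016 (SE 0.07) for Ccna1 and none passed the test. Ccna1 was at 142, 149 and 146 CPM in the controls, 139, 146 and 141 CPM at 3 days, 149.9, 150.5 and 138 CPM at 14 days and 141, 160.5 and 139 CPM at 21 days, with all groups overlapping.

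**Figure D3:**
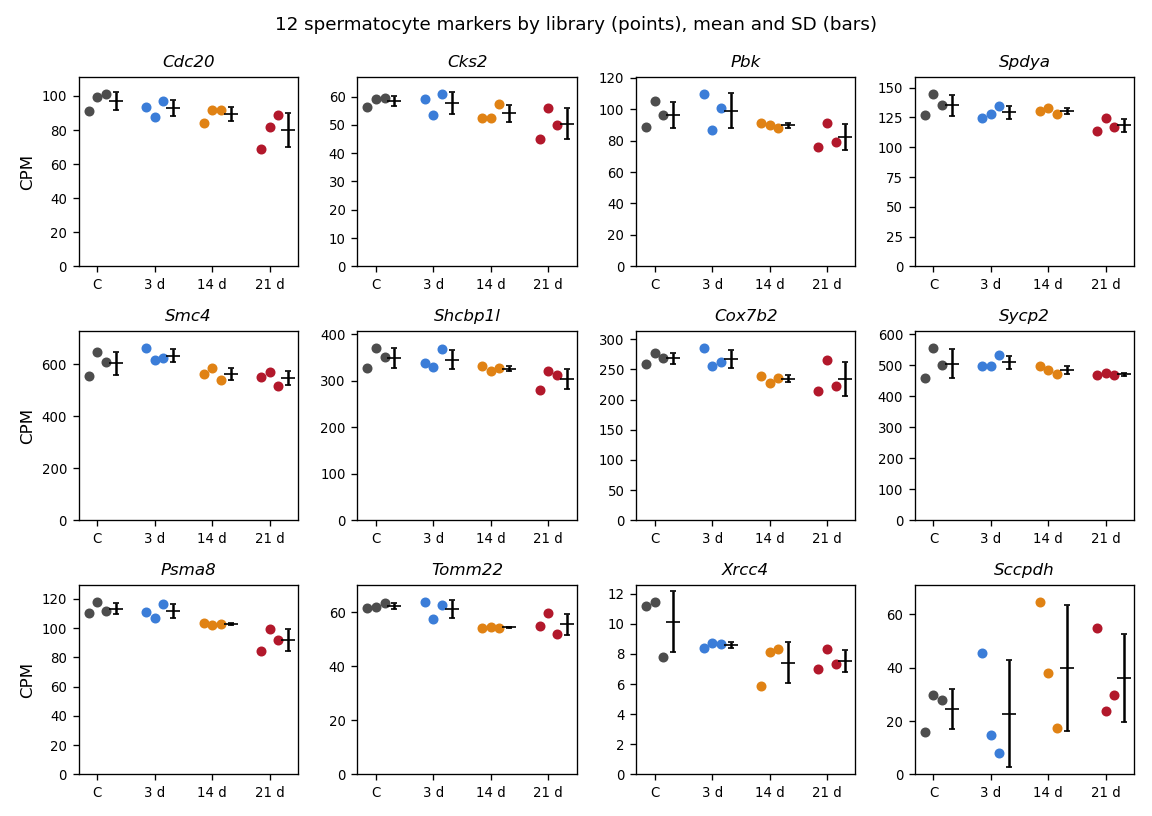
CPM of 12 SPC markers in each library (points, 3 per group, from left to right replicates 1 to 3; C, control; 3 d, 14 d and 21 d, days of stress), with the mean and SD (n = 3) as bars; axes start at 0. Psma8 is at 84.6 to 99.6 CPM in the 21-day group against 110 to 118 in the controls, while Sccpdh ranges from 7.96 to 64.5 CPM across libraries.

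The genes of protein folding, turnover and membrane traffic number 9, and 1 was called lower at 14 days, 3 at 21 days and 2 for chronic stress. The shares of all features called lower were 4.86%, 5.71% and 9.29%. Psma8, the proteasome subunit of the male germline that is needed in meiotic prophase, was at 110.3, 118 and 112 CPM in the controls, 111, 107 and 117 CPM at 3 days, 103, 102 and 103 CPM at 14 days and 84.5, 99.6 and 91.6 CPM at 21 days. Its 3 libraries at 14 days and its 3 libraries at 21 days were all below the lowest control. The log2 fold change was -0.03 (SE 0.05) at 3 days, -0.15 (SE 0.05, edgeR unadjusted p = 0.0256) at 14 days and -0.31 (SE 0.08, edgeR unadjusted p = 0.00550, adjusted p = 0.189) at 21 days. The call at 14 days was kept in 2 of 6 fits that each left out a library and the call at 21 days in 6 of 6, which held for none of the other 12 markers called at that time. The call for chronic stress was kept in 9 of 9. Arl6ip1, a protein of the endoplasmic reticulum, and Chmp2b, an ESCRT-III subunit, were the other members called at 21 days, both named after their values were seen. Arl6ip1 was at 203 to 212 CPM in the controls and at 170, 191 and 193 CPM at 21 days, and Chmp2b was at 74.8 to 82.7 CPM in the controls and at 71.2, 67.7 and 70.8 CPM at 21 days. Neither gene overlapped between these groups.

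Of 25 markers of metabolism and mitochondria, 3 were called lower at 14 days, 1 at 21 days and 4 for chronic stress, and 1 was called higher at 3 days. Over all features, 4.86%, 5.71% and 9.29% were called lower, and 2.03% were called higher at 3 days. Tomm22, a receptor of the outer membrane import complex of mitochondria, was at 61.6, 61.9 and 63.6 CPM in the controls, 63.7, 57.5 and 62.9 CPM at 3 days, 54.3, 54.5 and 54.3 CPM at 14 days and 54.9, 59.7 and 52.05 CPM at 21 days. The 6 libraries of chronic stress were all below the 3 controls and the 3-day libraries overlapped with these. The log2 fold change was -0.20 (SE 0.05, edgeR unadjusted p = 0.00585) at 14 days, -0.18 (SE 0.07) at 21 days and -0.19 (SE 0.05, edgeR adjusted p = 0.0788) for chronic stress. In fits that each left out a library the call was kept in 6 of 6 at 14 days, in 1 of 6 at 21 days and in 9 of 9 for chronic stress. Cox7b2 was at 259, 278 and 268 CPM in the controls, 285, 255 and 262 CPM at 3 days, 239.8, 228 and 235 CPM at 14 days and 214, 265 and 222 CPM at 21 days. The 14-day libraries were all below the controls, the 21-day replicate 2 was not, and the log2 fold changes were -0.20 (SE 0.05, edgeR unadjusted p = 0.00768) and, at 21 days, -0.21 (SE 0.09, edgeR unadjusted p = 0.0638). Its chronic call was also kept in 9 of 9 such fits. The other members called for chronic stress were Nubp2, of iron-sulfur protein assembly, and the phosphatase Phospho2, both named after their values were seen. The retinol dehydrogenase Rdh11 was called lower at 14 days, with 168, 177 and 182 CPM in the controls, 180.9, 176 and 164 CPM at 3 days, 158, 165 and 146 CPM at 14 days and 154, 182 and 156 CPM at 21 days. Its 21-day replicate 2 was level with the highest control.

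Smpd5, a mitochondrial sphingomyelinase, was the marker called higher at 3 days, with 144, 151 and 122 CPM in the controls, 163, 157 and 162 CPM at 3 days, 157, 162 and 155 CPM at 14 days and 141, 158 and 150.3 CPM at 21 days. The 3-day and 14-day libraries were all above the controls, the log2 fold change at 3 days was 0.21 (SE 0.08, edgeR adjusted p = 0.985), and the call was kept in 2 of 6 fits that left out a library. Ldhc, the lactate dehydrogenase of germ cells, named after its values were seen, was at 626 to 755 CPM in all 12 libraries, with a log2 fold change of -0.02 (SE 0.09) at 21 days. Mdh1b, a malate dehydrogenase relative, had the lowest fitted value at 3 days, with a log2 fold change of -0.27 (SE 0.15), which did not pass the test. Its libraries spread widely, at 102, 144 and 132 CPM in the controls, 89.6, 102 and 123 CPM at 3 days, 122, 119 and 92.3 CPM at 14 days and 125, 142 and 135 CPM at 21 days. Rnls had a log2 fold change of 0.03 (SE 0.13) at 21 days.

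Markers of the cilium, the acrosome and signalling had few calls against control, and roles were not tested against each other. Of 27 markers of the cilium, flagellum and centriole, 0 were called at 3 days, 0 at 14 days, 1 at 21 days and 0 for chronic stress. Lower calls made up 5.71% of all features at 21 days and 9.29% for chronic stress. The median log2 fold change of the 27 at 21 days was -0.05, beside -0.06 for all 171 markers. The single call was Tuba3b, an alpha tubulin with a near-identical partner, named after its values were seen, at 498, 538 and 568 CPM in the controls and 434, 502 and 460 CPM at 21 days, which overlap. Of 5 markers of the acrosome and sperm head, Ccdc62, Dkkl1, Spesp1, Spink2 and Zpbp2, 0 were called in any comparison with control, and the median at 21 days was -0.02. Of 11 markers of signalling and channels, 0 were called at 21 days, and all 11 had a negative difference, with a median of -0.05. Calm2, one of the calmodulin genes, named after its values were seen, was called for chronic stress, at 864, 896 and 892 CPM in the controls and 746 to 863 CPM in the 6 chronic libraries, a log2 fold change of -0.13 (SE 0.05, edgeR adjusted p = 0.202). Ppp3ca, the calcineurin catalytic subunit, was at 17.3 to 20.5 CPM in the controls and 15.9, 16.4 and 16.4 CPM at 14 days, which do not overlap, and the edgeR unadjusted p of 0.0502 missed the threshold. Aqp9, an aquaporin, had a log2 fold change of -0.23 (SE 0.12) at 3 days.

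Of 18 markers of transcription and chromatin and 22 of RNA and translation, 0 were called in any comparison with control. Lower calls made up 5.71% of all features at 21 days and 9.29% for chronic stress. The medians of these 2 roles at 21 days were -0.10 and -0.08, with 16 of 18 and 18 of 22 negative. Coprs, a partner of the arginine methyltransferase Prmt5, was at 20.4, 21.4 and 20.6 CPM in the controls, 25.2, 25.2 and 21.6 CPM at 3 days, 18.4, 15.4 and 25.2 CPM at 14 days and 16.9, 13.97 and 19.7 CPM at 21 days. It was above all controls in the 3 libraries at 3 days and below them in the 3 at 21 days, with log2 fold changes of 0.20 (SE 0.09, edgeR unadjusted p = 0.0608) and -0.31 (SE 0.14, edgeR unadjusted p = 0.0559), and its 14-day libraries lay on both sides of the controls. Crcp, a subunit of RNA polymerase III, was likewise above all controls at 3 days, with a log2 fold change of 0.16 (SE 0.07, edgeR unadjusted p = 0.0565). Ovol2 had one of -0.15 (SE 0.23) at 21 days.

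Among the 32 markers outside these roles, 1 was called lower at 3 days, 0 at 14 days, 1 at 21 days and 2 for chronic stress. The shares of all features called lower were 2.01%, 4.86%, 5.71% and 9.29%. Itgae, the alpha E integrin subunit, was the marker called lower at 3 days, with 34.5, 37.3 and 32.3 CPM in the controls, 31.2, 30.3 and 30.7 CPM at 3 days, 29.2, 30.5 and 31.99 CPM at 14 days and 31.1, 36.3 and 33.4 CPM at 21 days. The 3-day and 14-day libraries were all below the controls and the 21-day libraries were not, and the log2 fold change at 3 days was -0.18 (SE 0.08, edgeR adjusted p = 0.985). Its 2 transcripts changed in balance between libraries, as the leading one took from 74.3% to 95.2% of their summed TPM. Glipr1l2 was at 30.3, 25.5 and 27.4 CPM in the controls, 28.9, 22.8 and 33.2 CPM at 3 days, 22.99, 25.2 and 24.7 CPM at 14 days and 25.1, 24.4 and 24.5 CPM at 21 days. All 6 chronic libraries were below the lowest control in Glipr1l2, with a log2 fold change of -0.19 (SE 0.06, edgeR adjusted p = 0.150). Fam216a was the other call for chronic stress and the chemokine-like Cklf the call at 21 days, both named after their values were seen. Cklf was at 28.4, 31.5 and 28.96 CPM in the controls and 20.7, 27.1 and 25.4 CPM at 21 days. Sccpdh had the highest fitted values at 14 days, 0.70 (SE 0.45), and 21 days, 0.54 (SE 0.35), and neither passed the test. Cmtm2a, at 1270 to 1598 CPM in all libraries, and Serf1, at 260 to 333 CPM, had log2 fold changes at 21 days of 0.03 (SE 0.10) and 0.10 (SE 0.09).

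**Figure D4:**
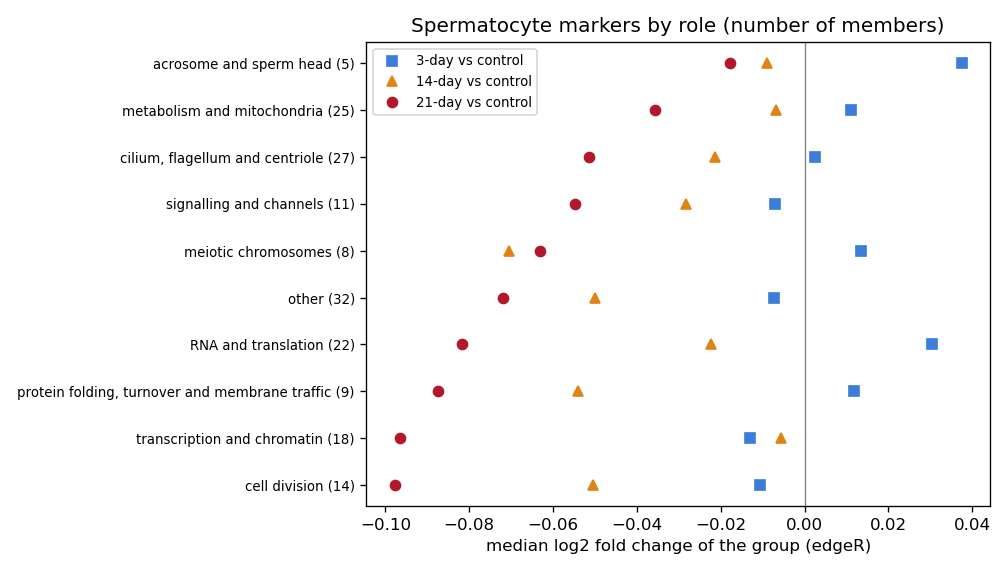
Median log2 fold change (edgeR) against control of the SPC markers of each role, with the number of members in brackets, after 3 days (squares), 14 days (triangles) and 21 days (circles). At 21 days the medians run from -0.10 for cell division to -0.02 for acrosome and sperm head, and at 3 days they lie between -0.01 and 0.04.

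The markers were also divided by the mouse stage that they mark. The 27 markers of early stages alone (G1 to zygotene) had a median log2 fold change of -0.08 at 21 days with 4 called lower, the 54 of pachytene and diplotene alone had -0.06 with 2 called lower, the 6 of the meiotic divisions alone had -0.09 with 0 called, and the 84 that mark several of these had -0.06 with 7 called lower. At 21 days, 5.71% of all features were called lower. The differences between stages were not tested. At 14 days the 4 medians were -0.05, -0.02, -0.01 and -0.03.

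Comparisons among the stress groups asked how SPC marker expression went on from 3 days of stress. Between 14 and 3 days, 0 markers were called higher and 19 lower (11.1%), where 7.73% of all features were called higher and 5.66% lower, and the median log2 fold change was -0.04. Between 21 and 3 days, 1 was called higher and 40 lower (23.4%), where 8.23% of all features were called higher and 8.32% lower, and the median was -0.09 with 142 of 171 negative. Between 21 and 14 days, 1 was called higher and 5 lower, where 1.71% and 1.35% of all features were called, with a median of -0.04. With edgeR, 0 markers passed an adjusted p under 0.05 in these 3 comparisons, where 0%, 0.00472% and 0% of all features did, and with DESeq2 3, 5 and 0 markers did, where 3%, 5.72% and 0.0856% of all features that it gave an adjusted p did. The number called between 21 and 3 days was 8 without 21-day replicate 1 (2 higher and 6 lower), 20 without 3-day replicate 1, 19 without 3-day replicate 3, 22 without 21-day replicate 3 and 70 without 21-day replicate 2. Markers of the other germ cells moved in the same comparisons. Against the 3-day group, 46.2% of the spermatid markers of the same table were called higher at 14 days and 46.0% at 21 days. Of the 12 spermatogonia markers, 6 and 7 were called lower. Their part in the SPC differences was not tested.

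The 40 markers lower at 21 than at 3 days included 6 of 14 in cell division (Smc4, Prc1, Pbk, Spdya, Cdc20 and Cks2), 7 of 22 in RNA and translation, 4 of 9 in protein folding, turnover and membrane traffic, and 3 of 8 on meiotic chromosomes. In this comparison 8.32% of all features were called lower. Smc4 was at 616 to 662 CPM in the 3-day group and 518 to 572 CPM in the 21-day group, with a log2 fold change of -0.24 (SE 0.06, edgeR unadjusted p = 0.00385, adjusted p = 0.175). Sycp2 also separated these groups without overlap, with a log2 fold change of -0.14 (SE 0.05). Coprs had the second lowest value of all markers, -0.54 (SE 0.14), from 21.6 to 25.2 CPM at 3 days and 13.97 to 19.7 CPM at 21 days. Mdh1b was the marker called higher, with a log2 fold change of 0.33 (SE 0.11) against 3 days and 0.27 (SE 0.11) against 14 days, and all its 21-day libraries lay above those of both groups. The 5 markers lower at 21 than at 14 days were Ankrd54, Ddt, Phf2, Spdya and Psma8, of which Ankrd54, Ddt and Phf2 were named after their values were seen.

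SPC markers were set against the markers of the following cell type within each library, a measure that does not depend on how libraries are scaled. The mean log2 CPM of the 171 SPC markers minus that of the spermatid markers was 0.06, 0.0067 and 0.0078 in the controls, 0.13, -0.0079 and 0.09 in the 3-day group, -0.13, -0.0053 and -0.16 in the 14-day group, and -0.17, -0.20 and -0.19 in the 21-day group. All 3 libraries of the 21-day group were below the 9 others. All 3 of the 14-day group were below the controls, but they overlapped with the 3-day group. The mean log2 CPM of the SPC markers themselves was 7.14 ± 0.09 (SD, n = 3) in the controls, 7.16 ± 0.03 at 3 days, 7.13 ± 0.04 at 14 days and 7.09 ± 0.08 at 21 days, and that of the spermatid markers was 7.12 ± 0.12, 7.09 ± 0.05, 7.22 ± 0.04 and 7.27 ± 0.09. The lower difference at 21 days thus came with spermatid markers at a higher mean as well as SPC markers at a slightly lower one. At 21 days, 14.03% of the spermatid markers were called higher and 0.26% lower, which is 54 and 1 markers, where 8.46% and 5.71% of all features were. The 12 spermatogonia markers had a median log2 fold change of -0.33 at 21 days, with 5 called lower and 0 higher.

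**Figure D5:**
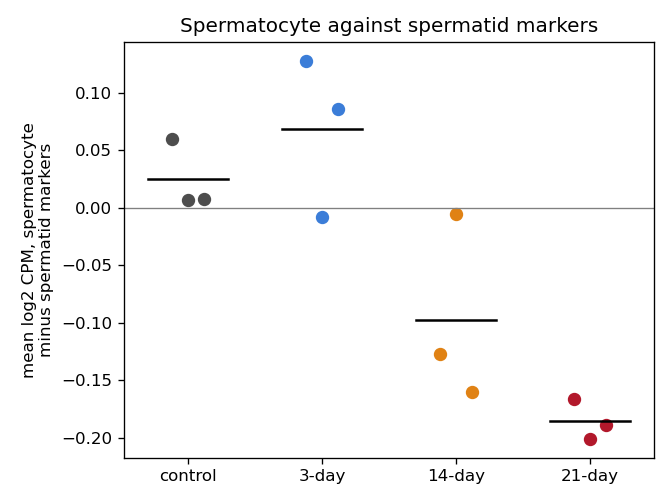
Mean log2 CPM of 171 SPC markers minus that of the spermatid markers in each library (points, 3 per group; bars, group means). The 21-day libraries lie between -0.20 and -0.17, below the 9 other libraries, and the controls between 0.0067 and 0.06.

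Transcript use of the SPC markers was steady. Of 171 markers, 44 were found as several transcripts, and in 40 of these 1 transcript led in all 12 libraries. The leading transcript differed between libraries in Pik3ip1, Ccdc178, Mgll and Kif3b, named after their values were seen. In Pik3ip1 the transcript leading on average held from 47.3% to 57.8% of the summed TPM of the gene, so that its 2 transcripts were near equal in each library.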

How the data were processed

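For each library, a deposited table lists 31715 Ensembl transcripts by length and effective length, and gives every transcript an estimated count (expected count) and a TPM. The methods and processing notes name Trimmomatic, HISAT2, HTSeq and Rnor_6.0, with no versions, whereas effective lengths and fractional counts per transcript are the layout of a pseudo-aligner, so how the deposited values were made is uncertain. TPM was scaled by the authors to effective length. The tables name no genes. Each marker was found by matching the counts of the study's marker table to a row, a run of neighbouring rows or 2 separate runs (127, 42 and 2 of 171 markers, 229 transcripts, largest deviation 0.5 counts), and its transcripts were summed.

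Counts were rounded and tested with edgeR 4.0.16 (R 4.3.3; TMM, filterByExpr, glmQLFit and glmQLFTest) on the libraries of the groups compared, with Benjamini-Hochberg adjustment over all features tested. SE is the log2 fold change divided by the root of the F statistic, and log2 CPM has a prior count of 2. The fit was tested on simulated data. With 3 libraries against 3, an exact two-sided permutation test cannot go below 0.1. DESeq2 1.42.0, other scalings and filters, a replicate block and leaving out single libraries were alternatives. Python 3.11.15, pandas 2.3.3, NumPy 2.4.6, SciPy 1.17.1 and matplotlib 3.10.9 were used.

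The members and lists were chosen with earlier results of these data known. Named were all members of the roles meiotic chromosomes and cell division, the 5 with the lowest p and the highest and lowest log2 fold change in each comparison with control, the 3 highest and 3 lowest in TPM, and the 3 with the largest SD. Members named otherwise are marked as such where their values are given. Promoters came from RefSeq (GRCr8), which is another assembly than the authors used. Copies of a library were looked for by chi-square and none was found. No interval was computed for single counts, since replicates give the error. Of the members of these roles, 1 is not reported here. Other meiosis genes and somatic markers were not analysed here.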

Additional observations from a re-analysis of the deposited data

Results flagged for a closer look

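Among the 6 libraries of 14 and 21 days, the gap test for an outlying library was run on 41 quantities. Of these, 4 exceeded Dixon's 95% value, which about 1 in 20 independent quantities from a single population would pass by chance. The number to expect here is not known. The 14-day and 21-day groups were joined, and Glipr1l2 and Ppp3ca had been named for their low p in comparisons of these libraries with control. In Glipr1l2 the 14-day replicate 1 stood apart at 4.53 log2 CPM, where the other libraries held 4.62 to 4.66. In Kctd19 the 21-day replicate 1 stood apart at 7.26 log2 CPM, where the others held 7.51 to 7.57. In Ppp3ca the 21-day replicate 1 stood apart at 4.30 log2 CPM, where the others held 3.99 to 4.04. In Shcbp1l the 21-day replicate 1 stood apart at 8.13 log2 CPM, where the others held 8.29 to 8.37. The library 21-day replicate 1 accounts for 3 of the 4.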

How the results depend on the processing

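Numbers of SPC markers called (higher and lower together, 2, 4, 13, 15, 19, 41 and 6 of 171 in the order 3-day, 14-day, 21-day and chronic against control, 14 against 3 days, 21 against 3 days and 21 against 14 days) changed by over 1.5 times as follows. With scaling to total counts they were 8, 10, 33, 27, 29, 65 and 10. With TMM from features outside the markers the 21-day number was 4 (1 higher and 3 lower), and with RLE factors the number for 21 against 3 days was 25. With all 12 libraries in one fit they were 8 at 14 days, 24 at 21 days and 6 for 14 against 3 days. Without a filter the 3-day number was 1, and with DESeq2 the 3-day and 21-day numbers were 1 and 21. Samples of the same replicate number were not shown to be paired (mean correlation of their deviations 0.12 between control and 21 days, from -0.02 to 0.23), and with the replicate block the numbers were 4 at 3 days, 2 at 14 days, 27 at 21 days, 26 for chronic stress and 11 for 14 against 3 days. The causes were not tested. Leaving out 1 library gave 1 to 9, 2 to 19, 2 to 26, 7 to 27, 8 to 16, 8 to 70 and 1 to 20 calls, and medians of -0.03 to 0.04, -0.07 to 0.01, -0.12 to -0.03, -0.09 to -0.0008, -0.05 to -0.02, -0.13 to -0.04 and -0.08 to -0.005. Lower calls outnumbered higher ones at 21 days in each setting but the fit without 21-day replicate 1, where both were 1. Of the 13 markers called at 21 days, 1 kept its call without 21-day replicate 1, 2 without control replicate 2 and 2 without control replicate 3. Of the 15 called for chronic stress, 5 kept theirs without control replicate 2, 6 without control replicate 3 and 8 without 21-day replicate 3. Totals of 23908048 to 29404590 counts left the lowest SPC marker, Znhit3, with 58 to 134 counts per library, and the part of counting error in the spread was not tested.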
